A study of Mus musculus with 10 samples.

Results

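The genes described here encode 7 Toll-like receptors (Tlr1, Tlr2, Tlr3, Tlr4, Tlr5, Tlr6 and Tlr9), the co-receptor Cd14, the adaptor Myd88 and the kinase Irak4, 10 of 20696 autosomal protein-coding genes of the mouse. They were taken as a named list, and for each those H3K4me3 peaks were collected that lay at most 1 kb from a transcription start site (TSS) in each of the replicates, together with the PLAC-seq interactions that have 1 end in the 5 kb bin holding a TSS. H3K4me3, a histone mark of active promoters, was measured by ChIP-seq in 2 libraries, of 12.8 M and 13.4 M tags, each set against input DNA, and contacts anchored at this mark were measured by PLAC-seq, a proximity ligation assay with an H3K4me3 pull-down, in 2 libraries that the authors combined into 1 list of interactions. All of these libraries came from wild-type C57/Bl6 microglia, sorted from brain as CD45+ CD11b+ CX3CR1+ whole cells with a gate on low CD45 per the study's methods, which name adult male mice, so no genotype, treatment or time was compared. Another 4 libraries of the series, Hi-C of 2 wild-type and 2 Sall1 Enhancer Knockout samples, were not analysed here. Replicates are not labelled as separate mice, and the spread between them may be technical.

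Toll-like receptors sense conserved molecules of microbes. Tlr1, Tlr2, Tlr4, Tlr5 and Tlr6 act at the cell surface on lipoproteins, lipopolysaccharide or flagellin, whereas Tlr3 and Tlr9 act in endosomes on nucleic acids. CD14 passes ligands to several of them, and all but TLR3 signal through MYD88, which recruits IRAK4 and leads to NF-kappaB activation. In the brain, microglia are the main cells that carry these receptors.

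Promoter sequences are shown first for 5 genes that share the 6 letters GGAAGT close to their start, and for Irak4. The tallest H3K4me3 peak of Irak4 had the highest mean of the list, a rank not resolved from that of Myd88. Each is a RefSeq window on GRCm38.p6 from 250 bases before to 50 bases after the start, printed 5′ to 3′ on the strand of the gene. Capitals mark GGAAGT, the core that ETS factors such as PU.1 recognise, or its reverse complement ACTTCC, and in Irak4 they mark every CG. The Tlr2 window is chr3:83841559-83841858 (minus strand), the Tlr1 window chr5:64933509-64933808 (minus), the Tlr6 window chr5:64959999-64960298 (minus), the Tlr9 window chr9:106222348-106222647 (plus), the Myd88 window chr9:119339969-119340268 (minus) and the Irak4 window chr15:94543410-94543709 (plus).
Tlr2: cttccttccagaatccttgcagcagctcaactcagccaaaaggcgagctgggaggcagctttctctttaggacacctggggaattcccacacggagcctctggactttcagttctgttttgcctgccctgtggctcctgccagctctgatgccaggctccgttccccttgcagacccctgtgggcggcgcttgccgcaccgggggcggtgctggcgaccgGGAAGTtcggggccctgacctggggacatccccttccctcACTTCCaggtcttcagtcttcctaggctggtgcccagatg
Tlr1: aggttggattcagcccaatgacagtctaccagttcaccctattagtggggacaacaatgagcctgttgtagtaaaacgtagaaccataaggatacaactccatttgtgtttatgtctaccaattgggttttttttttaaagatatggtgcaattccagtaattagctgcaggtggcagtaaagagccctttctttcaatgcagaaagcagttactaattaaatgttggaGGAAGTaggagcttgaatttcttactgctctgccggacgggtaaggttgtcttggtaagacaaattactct
Tlr6: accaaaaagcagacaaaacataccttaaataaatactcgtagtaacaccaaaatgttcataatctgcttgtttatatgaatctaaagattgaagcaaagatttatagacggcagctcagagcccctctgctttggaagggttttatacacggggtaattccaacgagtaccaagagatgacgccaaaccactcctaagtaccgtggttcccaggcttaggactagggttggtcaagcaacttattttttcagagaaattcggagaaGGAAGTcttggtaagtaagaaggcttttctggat
Tlr9: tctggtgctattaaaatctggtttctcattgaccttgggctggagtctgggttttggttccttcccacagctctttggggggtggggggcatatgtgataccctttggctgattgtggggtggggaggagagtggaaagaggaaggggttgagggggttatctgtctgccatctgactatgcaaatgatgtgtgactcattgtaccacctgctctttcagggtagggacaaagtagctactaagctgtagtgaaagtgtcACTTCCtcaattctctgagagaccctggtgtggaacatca
Myd88: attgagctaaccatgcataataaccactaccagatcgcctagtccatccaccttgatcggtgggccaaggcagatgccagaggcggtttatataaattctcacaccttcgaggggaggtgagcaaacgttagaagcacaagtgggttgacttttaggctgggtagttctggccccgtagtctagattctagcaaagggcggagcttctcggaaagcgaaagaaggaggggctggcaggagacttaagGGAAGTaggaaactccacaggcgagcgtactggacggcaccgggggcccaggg
Irak4: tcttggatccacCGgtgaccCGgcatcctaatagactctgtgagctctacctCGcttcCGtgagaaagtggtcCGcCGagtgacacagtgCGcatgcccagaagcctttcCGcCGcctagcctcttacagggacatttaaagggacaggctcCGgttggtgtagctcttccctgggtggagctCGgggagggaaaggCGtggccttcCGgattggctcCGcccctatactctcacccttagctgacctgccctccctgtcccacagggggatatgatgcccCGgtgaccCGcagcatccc

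Windows were found for 8 of the 10 genes, with 2 each for Tlr1 and Tlr6, and 6 of the 10 windows, from 5 genes, held GGAAGT on either strand, against 23.8% of all 32851 windows and 27.5% of the 12357 windows of autosomal genes with such peaks, called marked genes. Counted from the RefSeq start as 0, the match began at -3 in Myd88, at -21 in Tlr1, at -30 and 10 in Tlr2, at 16 in Tlr6 and at 10 in Tlr9, and the second Tlr6 window held another at -62. The NF-kappaB letters GGGANTTCC were found in Tlr2 alone, at -172 on the plus and -171 on the minus strand, and in 1.68% of all windows. TGANTCA, the AP-1 letters, were found in Tlr9 alone at -58, and in 7.81% of all windows. A pair of GAAA letters in the same direction with 2 bases between them, as bound by interferon regulatory factors, was present in Myd88 at -40 and in the second Tlr6 window at -116 and -110, and in 3.44% of all windows. Both strands were searched for all 6 motifs, and no match overlapped a match of another motif. Peak distances given below are instead counted from TSSs of the GENCODE annotation. The RefSeq start of Tlr2 lies 159 bp from its GENCODE TSS, and the second RefSeq start of Tlr6 lies 881 bp from that of Tlr6. The letters were chosen after the sequences had been seen, and a match is a stretch of letters and not a measured binding site.

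CpG dinucleotides were fewer in the receptor windows than in most windows of marked genes, a difference given as a description with no test. All 10 windows, including those of Irak4 and Myd88, held a median of 8.5 CpG, against 21 in windows of marked genes (quartiles 13 to 29) and 7 in all windows. Irak4 had 16 CpG and Myd88 had 13, whereas Tlr2 had 11, Tlr3 had 10, Tlr5 had 8, Tlr6 had 7 and 5, and Tlr1 had 3 and 9. Tlr9 had 0 CpG in its window. All 6 receptors with a window thus lay below the lower quartile of the marked genes in their first window, and the 2 signalling genes at or above it. The GC box GGGCGG was present in Irak4, Myd88, Tlr2, Tlr3 and Tlr5, and in 35.7% of all windows and 64.1% of those of marked genes. TATAAA was found in Myd88, at -164 on the minus and -160 on the plus strand. The first Tlr6 window held it at -180, -150 and -109, each on the minus strand. It was present in 13.6% of all windows and 6.61% of those of marked genes. Across all autosomal genes with a window, 1552 of 6749 genes under 13 CpG were marked (23.0%, median value of the tallest peak 133.5 tags per 10 M mapped tags), and 8078 of 8931 genes at or above it (90.4%, median value 235.05 tags per 10 M).

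**Figure D1:**
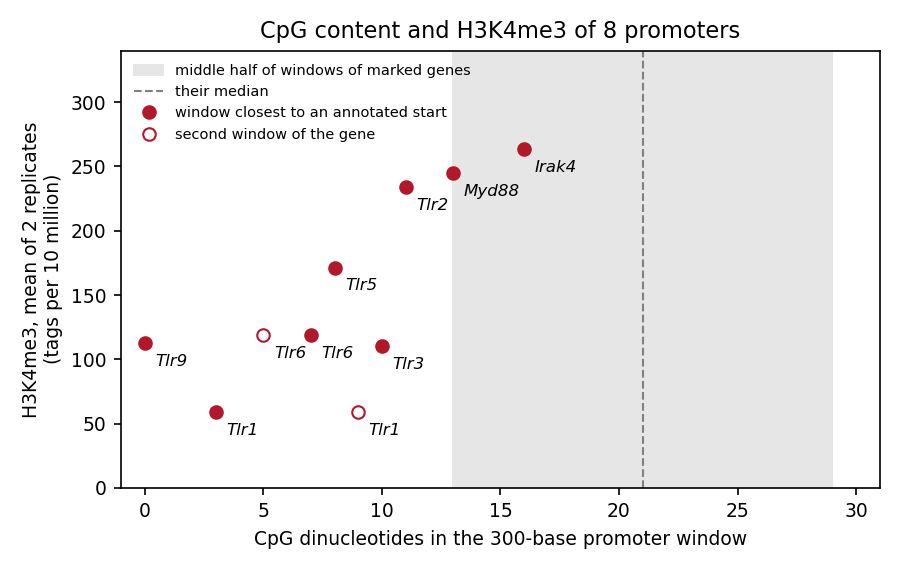
CpG dinucleotides in the 300-base RefSeq promoter window (x axis) against H3K4me3 (y axis, mean of 2 replicates in tags per 10 M) for the 8 genes with a window; open points are second windows of Tlr1 and Tlr6, the grey band spans the quartiles of windows of marked genes (13 to 29 CpG) and the dashed line is their median (21). Irak4 and Myd88, at 16 and 13 CpG, had the 2 highest values, and Tlr9 carried a value of 112.4 with 0 CpG.

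All 10 genes were marked, with an H3K4me3 peak at most 1 kb from a TSS in each replicate, which held for 59.4% of autosomal protein-coding genes. As the value of a gene, the tallest such peak was taken in each replicate, in tags per 10 M mapped tags. The mean of both replicates spanned 58.7 (Tlr1) to 263.4 (Irak4) with a median of 178.05, against a median of 220.4 and quartiles of 126.5 and 282.4 over the 12291 marked genes. Irak4, Myd88, Tlr2 and Cd14 exceeded the median of the marked genes, whereas Tlr6, Tlr9, Tlr3 and Tlr1 lay below their lower quartile. Replicates differed little, with a standard deviation of the log2 ratio of replicate 2 over replicate 1 of 0.11 over the 10 genes and 0.31 over all marked genes. The intervals given below are exact 95% Poisson intervals of the tag counts and cover counting error only.

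**Figure D2:**
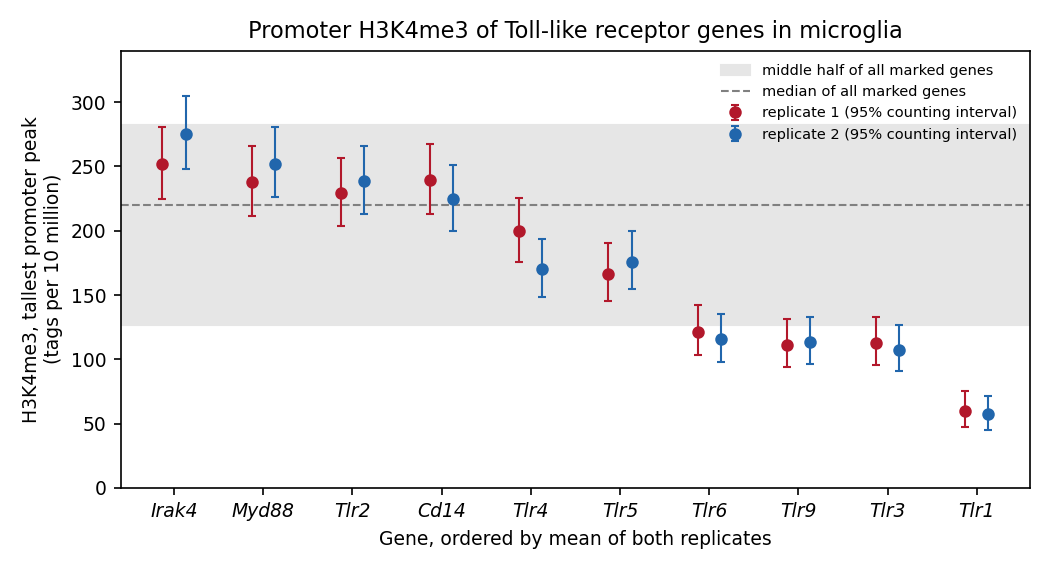
H3K4me3 of the tallest peak within 1 kb of a TSS (y axis, tags per 10 M) for the 10 genes, ordered by the mean of both replicates; points are replicates 1 and 2 with exact 95% Poisson intervals, the grey band spans the quartiles of all marked genes (126.5 to 282.4) and the dashed line is their median (220.4). Irak4, Myd88, Tlr2 and Cd14 lie above the dashed line, and Tlr1 stands below all others at 60 and 57.4.

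Tlr2, which pairs with TLR1 or TLR6 to bind lipopeptides, carried the highest value of the receptors. Its peak had 229 tags per 10 M in replicate 1 (interval 204 to 257) and 238.7 in replicate 2 (213 to 266), percentile 55.3 of marked genes. The peak lay in an intron of Tlr2 (chr3:83836272-83841767, minus strand, mm10), 446 bp and 295 bp downstream of the TSS in replicates 1 and 2. The replicate ranges of Tlr2 overlapped that of Cd14, so their order is not resolved.

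Tlr4, the receptor for lipopolysaccharide, had values of 199.4 (176 to 225) and 170.1 (149 to 194) tags per 10 M, the widest gap between replicates of the list at -0.23 on the log2 scale. Its peak stood 340 bp and 302 bp into the gene (chr4:66827584-66930284, plus strand), centred in an intron in replicate 1 and in a coding exon in replicate 2. A minor peak of 16.4 tags per 10 M lay 170 bp before the start in replicate 1 and was not called in replicate 2. Tlr5, the flagellin receptor, had 166.7 (145 to 191) and 176 (154 to 200) tags per 10 M, overlapping the replicate range of Tlr4. The Tlr5 peak lay at 126 bp and 86 bp from the first of 2 TSSs (chr1:182954788-182976044, plus strand). No peak was called in either replicate within 6 kb of the second. An intronic peak of 46 and 53.7 tags per 10 M followed at 5365 bp and 5378 bp from the first TSS.

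Tlr6 and Tlr1, neighbours on chromosome 5, had lower values. Tlr6 had 121.5 (103 to 142) and 115.6 (98.1 to 135) tags per 10 M in an intron, 538 bp and 541 bp from its TSS (gene at chr5:64952031-64960097, minus strand). A second, intergenic Tlr6 peak of 53 and 37.3 tags per 10 M was centred at -692 bp and -590 bp from the TSS, so that H3K4me3 flanked the start on both sides. Tlr1 (chr5:64924679-64933563, minus strand) had the lowest value of the list, 60 (47.4 to 74.99) and 57.4 (45.3 to 71.7) tags per 10 M, percentile 15.2 of marked genes. Its peak was intronic, 45 bp and 149 bp from the TSS, and a smaller peak of 26.5 tags per 10 M in a UTR was called in replicate 1 only. Tlr2, the shared partner of both receptors, had a mean value of 233.85, against 118.55 for Tlr6 and 58.7 for Tlr1, and the replicate ranges of the 3 genes did not overlap.

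The endosomal receptors had overlapping values. Tlr9, which senses unmethylated CpG DNA, had 111.4 (93.9 to 131) and 113.4 (96.1 to 133) tags per 10 M, 276 bp and 287 bp into the gene in an intron (chr9:106222598-106226883, plus strand). A minor Tlr9 peak of 13.2 and 15.7 tags per 10 M lay in a coding exon at 3881 bp and 3587 bp. Tlr3, which senses double-stranded RNA and signals through TICAM1 instead of MYD88, had 113 (95.4 to 133) and 107.4 (90.6 to 126) tags per 10 M. The Tlr3 peak was centred 53 bp and 59 bp from a TSS in a UTR (gene at chr8:45395665-45411080, minus strand), and of the 10 genes it was the only one whose peak spanned a TSS in both replicates. The gene model Gm45542 has a TSS within 1 kb of the same peak, so the tags cannot be assigned to one of them.

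Cd14, which hands lipopolysaccharide to the TLR4 complex, had 239.2 (213 to 268) and 224.5 (200 to 251.3) tags per 10 M. Its peak was the most distant from a TSS in the list, 890 bp and 956 bp downstream in a coding exon of this short gene (chr18:36725067-36726798, minus strand), and Cd14 no longer counted as marked when the window was narrowed to 500 bp.

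The signalling genes had the 2 highest means. Myd88, the adaptor that links the receptors to the IRAK kinases, had 237.6 (212 to 266) and 252.1 (226 to 280) tags per 10 M in a coding exon, 169 bp and 257 bp from its TSS (gene at chr9:119335934-119341411, minus strand). Introns of Acaa1a and Slc22a14 overlap this position in the annotation. A peak of almost the same height, 245.4 and 218.6 tags per 10 M, lay in a coding exon of Acaa1a at -1502 bp and -1535 bp from the Myd88 TSS, and a smaller peak of 129.3 and 77.6 stood between them at -813 bp and -1038 bp. Irak4, the first kinase recruited by MYD88, had 251.6 (225 to 281) and 275.2 (248 to 305) tags per 10 M, percentile 67.7 of marked genes. Its peak stood 176 bp and 125 bp into the gene (chr15:94543643-94581815, plus strand), in an intron in replicate 1 and a UTR in replicate 2. Pus7l, a pseudouridine synthase gene, has a TSS within 1 kb of this peak, so both genes can contribute to its value.

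Ordered by level, Irak4, Myd88, Tlr2 and Cd14 came first, and the replicate ranges of neighbours among these 4 overlapped. Tlr5 exceeded Tlr6 by 1.45 times and Tlr3 exceeded Tlr1 by 1.88 times, with neither replicate ranges nor counting intervals overlapping. The gap between Tlr5 and Tlr6 depends on taking the tallest peak, as summed peaks within 1 kb gave 171.35 and 163.7. Cd14 exceeded Tlr4 by 1.25 times and Tlr6 exceeded Tlr9 by 1.05 times in replicate ranges that did not overlap, but their counting intervals did. Tlr4 and Tlr5 overlapped, as did Tlr9 and Tlr3. In all 10 genes the tallest peak lay downstream of the nearest GENCODE TSS in both replicates, which held for 75.2% of marked genes. Its distance had a median of 226 bp and 272 bp in replicates 1 and 2, against 144 bp and 142 bp over all marked genes. The Tlr6 peak lies upstream of the second RefSeq start of this gene, which is 881 bp from the GENCODE TSS.

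**Figure D3:**
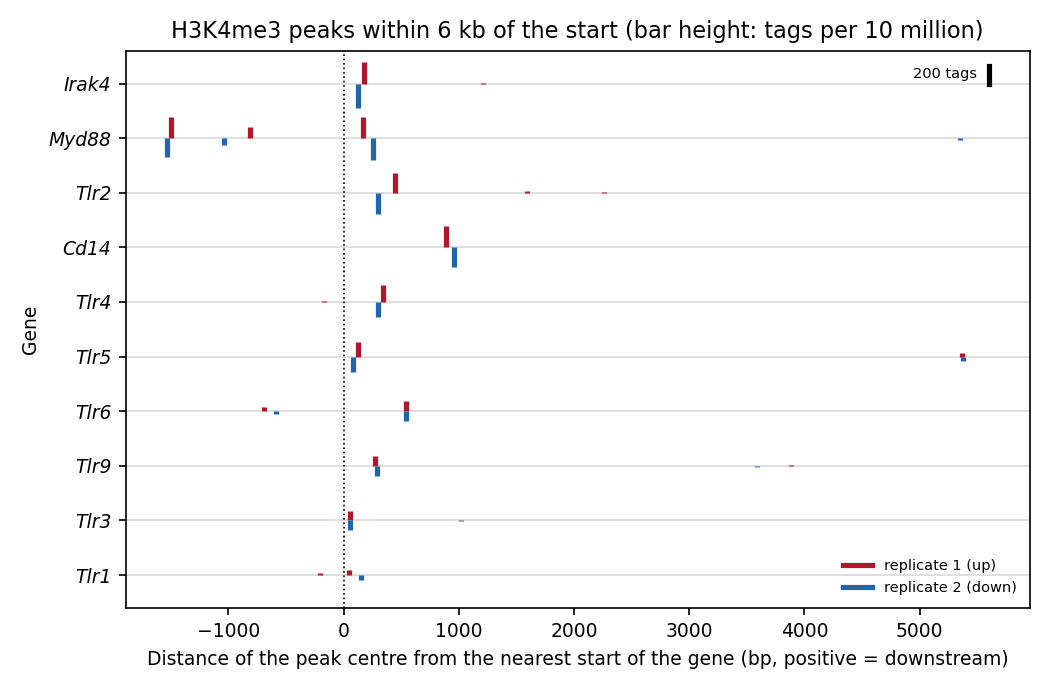
H3K4me3 peaks within 6 kb of a start for the 10 genes, by distance of the peak centre from the nearest start of the gene (x axis, bp, positive is downstream); bar height is the value in tags per 10 M (scale bar 200), drawn up for replicate 1 and down for replicate 2. The tallest promoter peaks lie to the right of the GENCODE start in every gene, from 45 bp in Tlr1 to 956 bp in Cd14. Upstream, Myd88 has a second tall peak at -1502 bp and -1535 bp.

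The list of interactions held 26689 pairs of 5 kb bins, each with at least 7 read pairs, at least 2.00 times the expected number and a false discovery rate (FDR) of at most 0.01, over 10 to 1000 kb. Both libraries were combined, so an interaction has no replicate error, and the total number of read pairs is unknown. Bin pairs outside the list were not called, which does not show that contact is absent. Of the 10 genes, Cd14, Tlr5, Tlr1, Tlr9, Myd88 and Irak4 had 13 interactions from a TSS bin, which makes 6 genes with any. Among all autosomal protein-coding genes 24.7% had an interaction, and among those with H3K4me3 37.8%. The mean was 1.3 interactions per gene in the list and 1.35 per marked gene. Contacts of the list were short, with 10 of 13 within 50 kb, against 20.5% of the 14781 interactions that touch a TSS bin. Their median was 25 kb and 3.00 times the expected read pairs, against 125 kb and 3.91 times. Of the 13 contacts 6 belong to Cd14 alone, all in 1 cluster, and without Cd14 4 of 7 lay within 50 kb.

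Cd14 contacted 6 bins in the 50 kb downstream of the gene, all within a cluster of 30 neighbouring interactions. The highest ratio was to the bin 35 kb away (chr18:36690001-36695000), with 37 read pairs against 7.33 expected (5.05 times, 95% interval 3.55 to 6.96, FDR 5.7e-12). That bin holds an exon of E230025N22Rik, had no H3K4me3 peak, and entered 7 other interactions, among them from the bins of Tmco6, of Ik and Ndufa2, and of Apbb3 and Slc35a4. Cd14 thus shared this contact with 5 neighbouring genes. The bin 50 kb away, which holds the TSSs of Apbb3, a binding partner of the amyloid precursor protein family, and Slc35a4, a nucleotide sugar transporter family gene, was reached with 41 read pairs against 15.6 expected (2.63 times, 1.89 to 3.57). Its H3K4me3 peaks reached 190.9 and 190.2 tags per 10 M. The 4 intergenic bins 10, 15, 20 and 25 kb away had ratios of 3.01, 2.98, 2.48 and 2.61 from 53, 55, 36 and 40 read pairs, and no H3K4me3 peak in both replicates.

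Tlr5 had 3 interactions. Upstream, its first TSS bin contacted an intergenic bin at 25 kb with 36 read pairs against 13.5 expected (2.67 times, 1.87 to 3.70, FDR 2.2e-05) and the bin beside it at 20 kb with 28 against 9.28 (3.02 times, 2.00 to 4.36). The bin at 25 kb carried an H3K4me3 peak of 40.5 and 44.0 tags per 10 M although no coding gene starts there. The bin of the second TSS, which had no H3K4me3 peak in either replicate, contacted an intergenic bin 300 kb downstream with 11 read pairs against 1.88 expected (5.85 times, 2.92 to 10.5, FDR 0.00021). This was the highest ratio and the longest span among the 13 contacts from a TSS bin. It rests on few read pairs, and its far end had a low H3K4me3 peak of 7.79 and 14.2 tags per 10 M. The 300 kb contact lies in a cluster of 10 interactions and is not its summit, and its far bin entered 6 other interactions. From bins inside the gene body another 4 interactions started, of which 3 ended in an intron of Susd4 90 or 95 kb upstream, at 3.86 to 5.35 times the expected number. The fourth ran 295 kb downstream, into the same far bin as the 300 kb contact, with 9 read pairs against 1.46 expected (6.16 times, 2.82 to 11.7). The peak 5365 bp into Tlr5 lies in the bin from which 2 of these contacts start.

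Tlr1 had 1 interaction, of 10 kb and toward the bin of its own end, with 73 read pairs against 28.4 expected (2.57 times, 2.02 to 3.23, FDR 2.0e-09). It was a single interaction outside any cluster, and the far bin holds an exon of Tlr1 and no H3K4me3 peak. Tlr9 contacted the bin of Abhd14a and Abhd14b 225 kb downstream with 10 read pairs against 2.56 expected (3.91 times, 1.88 to 7.19, FDR 0.0064). Both ends of this contact were marked, the far one with 100.5 and 105.9 tags per 10 M. Myd88 contacted a bin 95 kb downstream, in an exon of Oxsr1 and an intron of Slc22a14, with 16 read pairs against 5.33 expected (3.00 times, 1.72 to 4.88, FDR 0.0054). The TSS of Acaa1a, a peroxisomal thiolase gene, lies in the same bin as that of Myd88, so the contact belongs to both, and the far bin was also reached from Xylb. With at least 20 read pairs or an FDR of at most 0.0001 required, the contacts of Tlr9 and Myd88 and the 300 kb contact of Tlr5 were lost. Irak4 contacted the bin of Twf1, the gene of an actin-binding protein, 45 kb downstream with 51 read pairs against 17.0 expected (3.01 times, 2.24 to 3.95, FDR 5.1e-09). The Twf1 bin carried 406.7 and 330.4 tags per 10 M, and the Irak4 bin is shared with Pus7l.

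**Figure D4:**
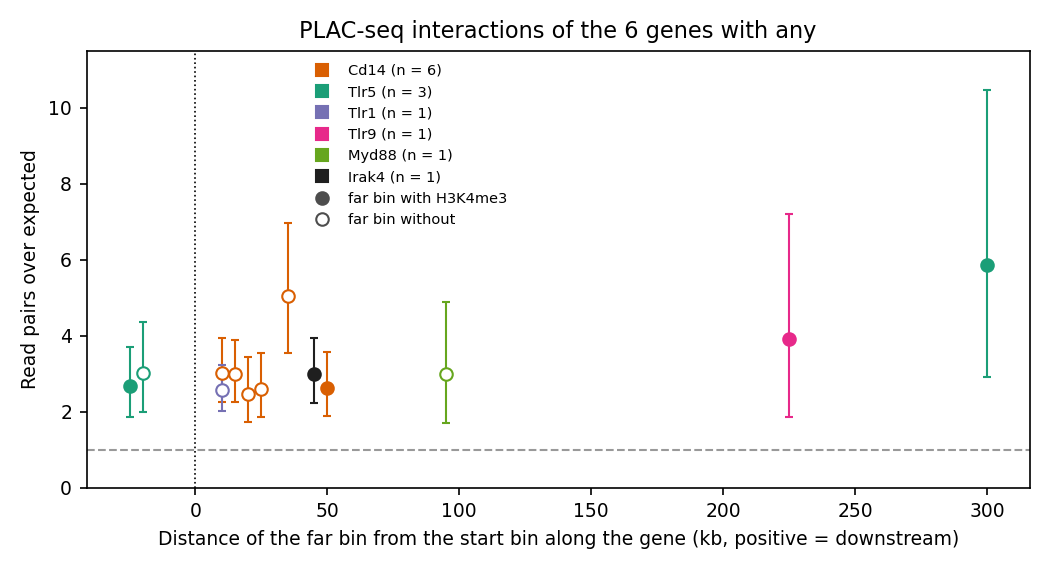
Read pairs over the expected number (y axis, with exact 95% Poisson intervals of the count) against the distance of the far bin from the TSS bin along the gene (x axis, kb, positive is downstream) for the 13 interactions of 6 genes; filled points have an H3K4me3 peak of both replicates in the far bin and the dashed line marks a ratio of 1. Of the 13, 10 lie within 50 kb, and the highest ratios are those of Tlr5 at 300 kb (5.85) and Cd14 at 35 kb (5.05). Downstream contacts number 11, of which 6 are from the 1 cluster of Cd14, and the share over all interactions was not computed.

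Of the 13 far bins, 5 held H3K4me3 of both replicates (38.5%), against 22.9% of 16176 interactions counted from a bin with a TSS. Coding TSSs were present in 3 of them, those of Irak4, Tlr9 and the 50 kb contact of Cd14. The other 2 marked far bins were the intergenic bins of Tlr5 at 25 kb and 300 kb.

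Tlr2, Tlr3, Tlr4 and Tlr6 had no interaction from a TSS bin. For Tlr2, which had the highest H3K4me3 of the receptors, the nearest bin with any interaction was 315 kb away, and for Tlr4 it was 2885 kb away. For Tlr3 it was 50 kb away. The TSS of Tlr6 lies only 47 bp inside its bin and its tallest peak falls in the next one, which had interactions to intergenic bins 55 kb (27 read pairs against 8.44, 3.20 times) and 70 kb downstream (25 against 8.17, 3.06 times). Myd88 has a similar position, with the TSS 41 bp inside its bin, and the bin of its peak had 2 interactions, of 10 kb (45 against 18.7, 2.40 times) and 15 kb (35 against 17.0, 2.06 times). Counted from the bin of the tallest peak, a choice made after these positions had been seen, 7 genes had 15 interactions.

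The rest of the pathway was covered by 43 genes grouped by role, of which 38 are autosomal. Of these 38, 34 were marked (89.5%, against 59.4% of autosomal genes), and 15 of the 34 had an interaction (44.1%, against 37.8% of marked genes). The 34 marked autosomal genes had a median value of 252.4 tags per 10 M, and of the 10 genes only Irak4 exceeded it. Another 4 genes on chromosome X were marked, which makes 38 in all, and this median leaves them out. The list of interactions held none on chromosome X, so Tlr7, Tlr8, Tlr13, Irak1 and Tab3 could not be assessed for contacts.

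Of 5 other Toll-like receptors 3 were marked, with means of 45.65 to 64.2 tags per 10 M, a range that includes Tlr1 of the list (58.7). The highest was Tlr7, a receptor for single-stranded RNA, with 72.5 and 55.9 tags per 10 M. Tlr7 and Tlr13 are on chromosome X, which male mice carry in 1 copy, and their values were not adjusted for this. Tlr12, which binds profilin of protozoa, had 43.6 and 47.7 tags per 10 M and 4 interactions of 35 to 95 kb, more than any of the 7 Toll-like receptors of the list. Tlr11, which binds the same ligand, was not marked. Of the 8 co-receptors and chaperones 6 were marked and 2 had an interaction. Unc93b1, which carries the nucleic acid receptors to endosomes, had the highest value of these with 316.3 and 282 tags per 10 M and no interaction. Cd180, a homologue of TLR4, had 3 interactions of 10 to 960 kb. Lbp, which binds lipopolysaccharide in plasma, and the scavenger receptor gene Cd36 were not marked.

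By role, the marked genes had medians of 62 tags per 10 M in the 3 other receptors, 2 of which are on chromosome X, 179.9 in co-receptors and chaperones, 200.5 in adaptors, 242.8 in kinases and ligases, 261.9 in inhibitors and 301.6 in transcription factors. The 7 receptors of the list ranged between 58.7 and 233.85, so that Tlr2 exceeded the median of the adaptors. All 5 further adaptors were marked and 2 had an interaction, and Pik3ap1, an adaptor to phosphoinositide 3-kinase, had both the highest value (298.4 and 337.9 tags per 10 M) and the most interactions (3). Of 13 kinases and ubiquitin ligases 12 were marked, and 5 of the 11 autosomal ones had an interaction. Ripk1 had the highest value of the pathway, 426.2 and 471.4 tags per 10 M, and no interaction, whereas Irak2 had 176.1 and 176.8 tags per 10 M and 10 interactions of 15 to 80 kb. Ikbke, which encodes a kinase that acts on IRF3, was not marked. All 7 inhibitors were marked and 2 had interactions, led by Tnfaip3, the gene of the ubiquitin-editing enzyme A20, with 408.2 and 424.4 tags per 10 M and 29 interactions. The 5 transcription factor genes were all marked and 3 had interactions; Rela had the highest value (312.4 and 365.5 tags per 10 M) and Irf7 the most interactions (2).

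**Figure D5:**
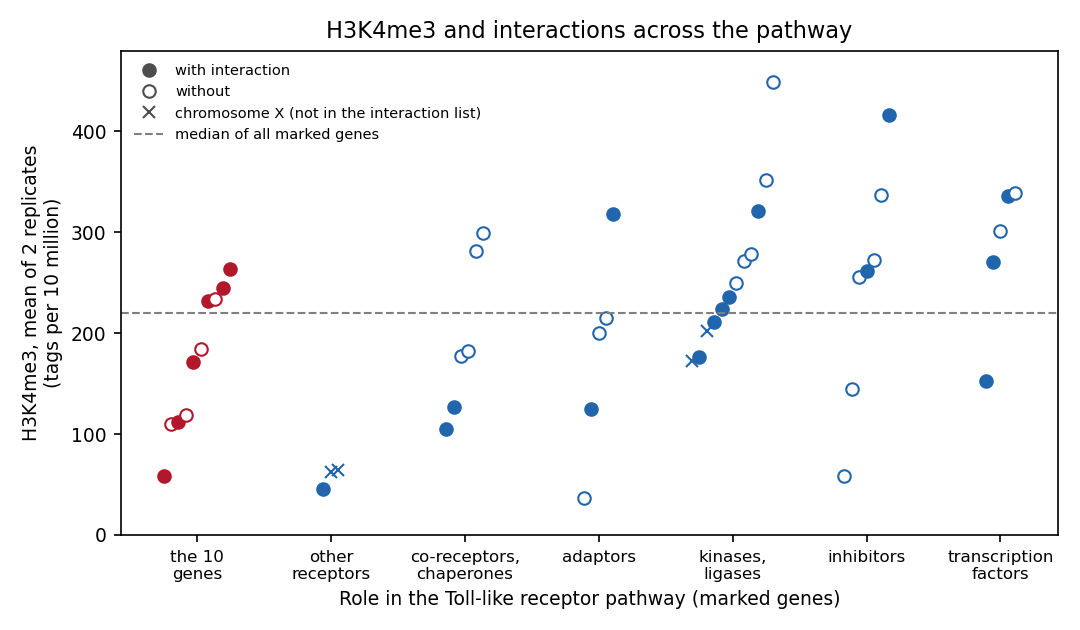
H3K4me3 (y axis, mean of 2 replicates, tags per 10 M) of the 10 genes and of the 38 other marked pathway genes by role (x axis); filled points have at least 1 interaction, open points have none, crosses are on chromosome X, and the dashed line is the median of all marked genes (220.4). The other receptors lie between 45.65 and 64.2, the kinases and ligases between 172.55 and 448.8, and the transcription factors between 152.25 and 338.95.

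The labelled cell type was compared with its markers. All 11 microglia markers were marked (means of 64.4 to 301.3 tags per 10 M), and 0 of 7 monocyte and neutrophil and 0 of 4 lymphocyte markers. Of the border macrophage markers 2 of 6 were marked, Stab1 at 85.7 and 91.7 and Mrc1 at 15.6 and 11.9 tags per 10 M. Neuron (3 of 5) and astrocyte (2 of 4) markers had means of both replicates of at most 20.5 tags per 10 M, whereas oligodendrocyte (2 of 5) and endothelial (3 of 5) markers reached means of 186.6 in Mbp and 135 in Kdr. The part of such cells in the peaks of the 10 genes was not tested.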

How the data were processed

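H3K4me3 ChIP-seq, input and PLAC-seq libraries of wild-type microglia were grouped by assay as the labels give them. The deposited peak lists, 1 per library, name Bowtie2 and HOMER with mm10 in the submitters' processing notes, whereas the template peaks of the interaction caller came from the ENCODE pipeline per the study's methods, so these may be other calls. Peaks had a fixed width of 184 bp in replicate 1 (27845 peaks, 12.8 M tags) and 188 bp in replicate 2 (26574 peaks, 13.4 M tags). The deposited signal is tags per 10 M, normalized by the authors, and they scaled the deposited signal of the input to the ChIP depth. The deposited tag counts gave the exact Poisson intervals. The authors' fold over input (a ratio) entered 1 alternative, and their p-value, score and fraction of tags near the peak centre were not used. Which input library served which ChIP library is not given in the sources used here.

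PLAC-seq was processed by the authors with MAPS in 5 kb bins. The deposited counts of read pairs, the expected signal and the FDR (an adjusted p-value) were used, and the deposited −log10 p-value per cluster was not. Cluster sizes and summits were used as deposited. Ratio intervals treat the expected number as exact. No column of other samples had to be left out.

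Genes and TSSs came from GENCODE M21 (GRCm38). The gene list, the pathway and marker lists and the processing alternatives were chosen with earlier results of these data known, so counts stand beside their background share and no test was made over the list. All 10 genes are named. In each pathway group the gene with the highest value, the gene with the most interactions and every autosomal unmarked gene are named, as are genes that share a TSS bin or lie with a TSS in a far bin. Promoter windows came from RefSeq. Python 3.11.15, pandas 2.3.3, scipy 1.17.1 and matplotlib 3.10.9 were used, and the scripts were tested on simulated data.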

Additional observations from a re-analysis of the deposited data

How the results depend on the processing

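All 10 genes stayed marked with a window of 2500 bp, with at least 10-fold over input, with 1 TSS per gene and in either replicate alone, and 9 with a window of 500 bp, without Cd14. Only 1 gene, Tlr3, had a peak on the TSS itself in both replicates. The median value was 178.05 tags per 10 M, 173.05 without replicate 1 and 183.05 without replicate 2, and between 171 and 183 under all alternatives. Of 29 recomputed values of single genes that keep both replicates, 3 moved by more than the replicate spread, all when peaks were summed: Tlr1 to 71.95, Tlr6 to 163.7 and Myd88 to 348.3. Summed, Myd88 stood above Irak4 (263.4) and Tlr6 came close to Tlr5 (171.35). Leaving out 1 of 2 replicates cannot move a value by more than the replicate spread. When only the summit of each cluster was kept, 3 interactions of 3 genes remained (Tlr1, Tlr5 and Irak4), and 30 were counted when bins beside the TSS bin were allowed (7 genes). An FDR of at most 0.0001 left 9 interactions in 4 genes, at least 20 read pairs left 10 in 4 genes, and 1 TSS per gene left 12 in 6 genes. No paired analysis was possible because all libraries belong to 1 group and the interaction list combines its replicates. Contacts of few read pairs, such as those of Tlr9 (10) and Tlr5 at 300 kb (11), are limited by depth.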
